A study of Mus musculus with 12 samples.

Results

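The 10 cytochrome P450 genes of drug and steroid metabolism studied here were followed through livers of mice in which a transgene for a subunit of the transcription factor AP-1 was induced, and of their control littermates. The genes are Cyp2b9, Cyp2b10, Cyp2c29, Cyp2c37, Cyp2c50, Cyp2c54, Cyp2c55, Cyp3a11, Cyp3a13 and Cyp2a5, taken as the rows of the deposited count table with these symbols. Each of the 10 symbols had a row of its own among 55421 listed genes, and 9 of the 10 passed the filter on low counts; Cyp2b9 did not. The livers came from adult male C57BL/6 mice of the strains Fra1hep and Fra2hep, with 3 mutants and 3 littermate controls each, 12 libraries in 4 groups. By the strain names and the levels of Fosl1 and Fosl2 given below, the transgene encodes Fra-1 in Fra1hep and Fra-2 in Fra2hep. In the mutants it was switched on by taking away doxycycline at weaning, 3 weeks after birth, and the controls of both strains went through the same withdrawal. Titles and design text place sampling 2 months later in all 4 groups, whereas the treatment label of the Fra2hep mutants gives 9 months and that of their controls 2 months. An age difference and the transgene therefore cannot be told apart in Fra2hep on that label. The sources used here name neither the promoter that drives the transgene nor the alleles of the controls. The design compares mutants with littermates in each strain, and the strains are compared here as well.

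Members of the families Cyp2 and Cyp3 are haem enzymes of the endoplasmic reticulum that oxidise drugs, steroids and fatty acids, with electrons from the reductase encoded by Por. In liver their transcription is raised by xenobiotic-sensing nuclear receptors, chiefly the constitutive androstane receptor CAR, encoded by Nr1i3, and the pregnane X receptor PXR, encoded by Nr1i2. Many of them are expressed most strongly in hepatocytes around the central vein.

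The 10 genes lie in clusters. On GRCm38, chromosome 19 holds Cyp2c55 (chr19:39007019-39042693, plus strand), Cyp2c29 (chr19:39269405-39330713, plus strand), Cyp2c37 (chr19:39992424-40012243, plus strand), Cyp2c54 (chr19:40037940-40073827, minus strand) and Cyp2c50 (chr19:40089688-40113950, plus strand). Chromosome 7 holds Cyp2b10 (chr7:25897620-25926624), Cyp2b9 (chr7:26173411-26210661) and Cyp2a5 (chr7:26835305-26843548), all on the plus strand. Chromosome 5 holds Cyp3a13 (chr5:137892932-137921619) and Cyp3a11 (chr5:145854426-145879964), both on the minus strand. RefSeq promoters of 300 bases on GRCm38.p6 were found for 9 of the 10 genes, and those of 4 genes are shown on the gene's own strand, 5′ to 3′. Cyp2c55 is shown as the member that passed the test, at chr19:39006769-39007068 on the plus strand, with its TATAAA motif at position -29 in capitals. Cyp3a13, at chr5:137921570-137921869 on the minus strand, is shown with capitals on the AP-1 motif TGACTCA, found at -91 and, as its reverse complement, at -6. Cyp2c37, at chr19:39992174-39992473, and Cyp2c50, at chr19:40089429-40089728, both on the plus strand, are shown because their levels moved closely together across the livers. Capitals there mark their longest shared run, 63 bases that start at -23 in Cyp2c37 and at -18 in Cyp2c50. Position -1 is the last base before the annotated start, and each window holds 250 bases before the start and 50 after it. Most of the shared run therefore lies after the start, in transcribed sequence.
Cyp2c55: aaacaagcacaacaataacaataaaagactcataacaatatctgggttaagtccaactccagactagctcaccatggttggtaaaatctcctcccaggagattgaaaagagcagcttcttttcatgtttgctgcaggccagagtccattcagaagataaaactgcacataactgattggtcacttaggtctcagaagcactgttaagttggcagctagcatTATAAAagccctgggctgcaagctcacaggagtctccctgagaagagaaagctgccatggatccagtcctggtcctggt
Cyp3a13: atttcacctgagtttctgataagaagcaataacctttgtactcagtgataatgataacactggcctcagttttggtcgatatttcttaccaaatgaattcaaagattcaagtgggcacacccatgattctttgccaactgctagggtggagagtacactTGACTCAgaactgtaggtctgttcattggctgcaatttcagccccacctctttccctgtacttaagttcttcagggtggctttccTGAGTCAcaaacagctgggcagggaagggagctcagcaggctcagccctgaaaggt
Cyp2c37: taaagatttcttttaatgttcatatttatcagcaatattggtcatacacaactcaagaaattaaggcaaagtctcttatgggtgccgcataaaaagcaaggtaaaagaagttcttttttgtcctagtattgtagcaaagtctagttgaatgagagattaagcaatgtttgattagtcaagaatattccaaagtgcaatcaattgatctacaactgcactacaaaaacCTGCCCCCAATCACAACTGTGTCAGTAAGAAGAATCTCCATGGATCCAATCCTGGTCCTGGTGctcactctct
Cyp2c50: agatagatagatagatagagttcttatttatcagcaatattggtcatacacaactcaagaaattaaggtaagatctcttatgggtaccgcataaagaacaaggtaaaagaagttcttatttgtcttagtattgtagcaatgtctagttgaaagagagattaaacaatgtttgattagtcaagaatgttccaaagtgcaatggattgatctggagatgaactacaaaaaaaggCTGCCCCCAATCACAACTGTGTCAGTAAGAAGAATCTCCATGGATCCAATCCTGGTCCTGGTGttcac

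On both strands, TGACTCA occurs in 5.2% of 32851 promoters of this length, and among the 9 members with a promoter it occurs in Cyp3a13. The antioxidant response core TGACNNNGC, present in 12.4% of promoters, is in none of the 9. Exact direct repeats of AGGTCA or of AGTTCA with a 4-base spacer, a kind of element that CAR and PXR bind, are not in any of the 9 either. These repeats occur in 0.0152% and 0.0122% of promoters, so their absence from 9 was likely from the outset. Sequence outside the promoter windows, and repeats with mismatches or other spacers, were not searched. Whether the members have elements for CAR or PXR was therefore not tested. TATAAA, present in 13.6% of promoters, lies at -29 in Cyp2c55 and Cyp2a5, at -19 in Cyp2c29 and at -234 in Cyp3a11. Cyp3a13, the member with the AP-1 motif in its window, did not pass the test in either strain. Whether AP-1 binds there, and whether the motif bears on the level, was not tested. Over the aligned bases the promoters of Cyp2c37 and Cyp2c50 are 89.5% identical, against 67.7% for Cyp2c55 and Cyp2c37. Between members of different subfamilies such values included 66.9% for Cyp2b9 and Cyp2a5 and 54.4% for Cyp3a13 and Cyp2b10.

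Reads of close relatives can be assigned to the wrong gene. Of the 50-base windows of a transcript, another gene's transcripts also held 40.8% for Cyp2a5, 30.7% for Cyp2c50, 30.1% for Cyp2c37, 25.7% for Cyp2c54, 14.8% for Cyp3a11, 11.2% for Cyp2b9 and 9.70% for Cyp2b10. For Cyp2c29, Cyp2c55 and Cyp3a13 the shares were 2.08%, 0.514% and 0%. Transcripts of Cyp2c37 and Cyp2c50 are 95.8% identical. Values of Cyp2a5, Cyp2c37, Cyp2c50 and Cyp2c54 are therefore uncertain as to which relative they count. Cyp2c29 also overlaps the pseudogene Cyp2c53-ps and Cyp3a13 the gene Gm15502 on the same strand, and the sources used here do not say whether counting used the strand.

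Library totals ran from 16834041 to 20464807 counts. Levels are given as CPM, counts scaled to the library's total over the genes kept and its TMM factor, and counting error weighs most on Cyp2b9. Fosl1, which encodes Fra-1, had 9.41, 10.2 and 12.8 CPM in Fra1hep mutants and at most 0.0538 CPM in their controls. Fosl2, which encodes Fra-2, had 398, 421 and 421 CPM in Fra2hep mutants, against 12.2, 48.1 and 16.03 CPM in their controls, of which Fra2hep control 2 was the highest. These counts do not separate transgene from native transcripts. The liver label held: 5 hepatocyte markers summed to between 57474 and 110908 CPM in Fra1hep mutants against 86954 to 124236 CPM in Fra1hep controls, and to between 60565 and 75718 CPM in Fra2hep mutants against 104849 to 126234 CPM in Fra2hep controls. In bulk liver, fewer cells of a type and less RNA per cell cannot be told apart. Fra1hep mutant 2 stood apart from the other libraries: 11 pericentral hepatocyte genes summed to 3075 CPM in it and to 6561 and 8452 CPM in the other Fra1hep mutants, against 9212 to 15417 CPM over the Fra2hep mutants and 10242 to 11873 CPM over the 6 controls. Values without this liver are given below for the members it moved most, Nr1i3 and the pericentral genes.

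Scaled to exon length, with all annotated exons merged, Cyp2c29 was the most abundant member and Cyp3a11 the next in all 4 groups. Cyp2b9 was last in all 4. In Fra2hep controls the order of Cyp2c29 and Cyp3a11 depends on the length used, here 3061 and 5093 bases. Their longest coding transcripts have 1783 and 2344 bases. Before scaling, Cyp3a11 stood above Cyp2c29 in Fra2hep controls, with means of 3114 and 2331 CPM. Cyp2c29, an epoxygenase of arachidonic acid, averaged 777 ± 270 CPM per kb in Fra1hep mutants and 663 ± 94.3 in Fra1hep controls, and 1034 ± 55.1 in Fra2hep mutants and 762 ± 305 in Fra2hep controls (SD, n = 3 each). Cyp3a11, the main hepatic PXR target, averaged 425 ± 26.0 CPM per kb in Fra1hep mutants and 379 ± 148 in Fra1hep controls, and 499.7 ± 132 in Fra2hep mutants and 611 ± 115 in Fra2hep controls. The Cyp2c29 and Cyp3a11 ranges overlapped in Fra2hep controls, where Cyp2c29 ran from 512 to 1101 CPM per kb and Cyp3a11 from 535 to 743. In both Fra2hep groups Cyp2c50, Cyp2c54, Cyp2c37, Cyp2a5 and Cyp3a13 followed in this order. Fra1hep controls had Cyp3a13 (55.3 ± 11.4 CPM per kb) above Cyp2a5 (40.6 ± 20.2), and Fra1hep mutants had Cyp2a5 at rank 3 (162 ± 201) and Cyp2c54 (60.0 ± 64.9) below Cyp2c37 (82.6 ± 71.5). Neighbours in each group's order overlapped in range among these 5 genes, except Cyp2c50 over Cyp2c54 in Fra2hep mutants (244 to 349 against 177 to 224 CPM per kb). Cyp2c55 and Cyp2b10 were low, at 24.6 ± 9.20 and 1.39 ± 0.778 CPM per kb in Fra1hep mutants, against 6.30 ± 1.29 and 4.31 ± 2.29 in Fra1hep controls. The order of that low pair was turned in Fra2hep controls, with Cyp2b10 at 13.1 ± 10.5 and Cyp2c55 at 8.80 ± 4.34 CPM per kb.

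**Figure D1:**
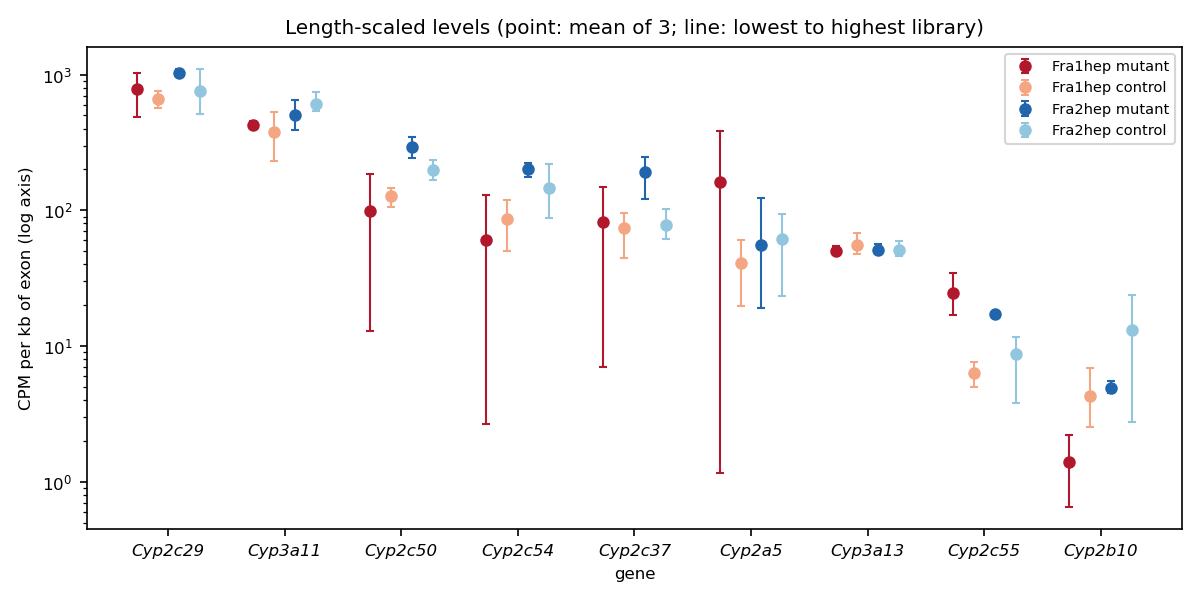
Levels of 9 members in CPM per kb of exon on a log axis, by gene and group, as the mean of 3 libraries (point) with the lowest and highest library (line). Cyp2c29 and Cyp3a11 lie above the other members in all 4 groups, and the long lines of Cyp2c37, Cyp2c50, Cyp2c54 and Cyp2a5 in Fra1hep mutants reach down to 6.96, 12.8, 2.68 and 1.17 CPM per kb.

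The transgenes left most of these P450 genes without a called change; the exception was Cyp2c55, which rose in Fra1hep mutants and in the mean effect of both strains. In Fra1hep, 1 of 9 members tested was called higher and 0 lower by edgeR's quasi-likelihood test at a Benjamini-Hochberg adjusted p under 0.05, where 2.9% of 14076 genes were called higher and 0.938% lower. In Fra2hep, 0 of 9 were called in either direction, where 0.845% of all genes were called higher and 0.22% lower. At an unadjusted p under 0.05 the counts were 2 of 9 in Fra1hep, where 16.3% of all genes passed, and 1 of 9 in Fra2hep, where 11.5% did. DESeq2 and limma-voom each called 1 higher and 0 lower in Fra1hep and 0 in Fra2hep. The median log2 fold change of the 9 members was 0.16 in Fra1hep and 0.44 in Fra2hep, beside 0.01 and -0.01 over all genes tested. The median size of the change, sign aside, was 0.38 in Fra1hep and 0.47 in Fra2hep for members, beside 0.21 and 0.19 for all genes. In Fra1hep 1 of 9 members, Cyp2c55, had all mutants above all controls, where 11.7% of all genes did, and 1 of 9, Cyp2b10, had all mutants below, where 9.98% did. In Fra2hep it was 3 of 9 above, Cyp2c37, Cyp2c50 and Cyp2c55, where 9.31% of all genes were, and 0 of 9 below, where 8.17% were. With so few members these shares are a description.

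**Figure D2:**
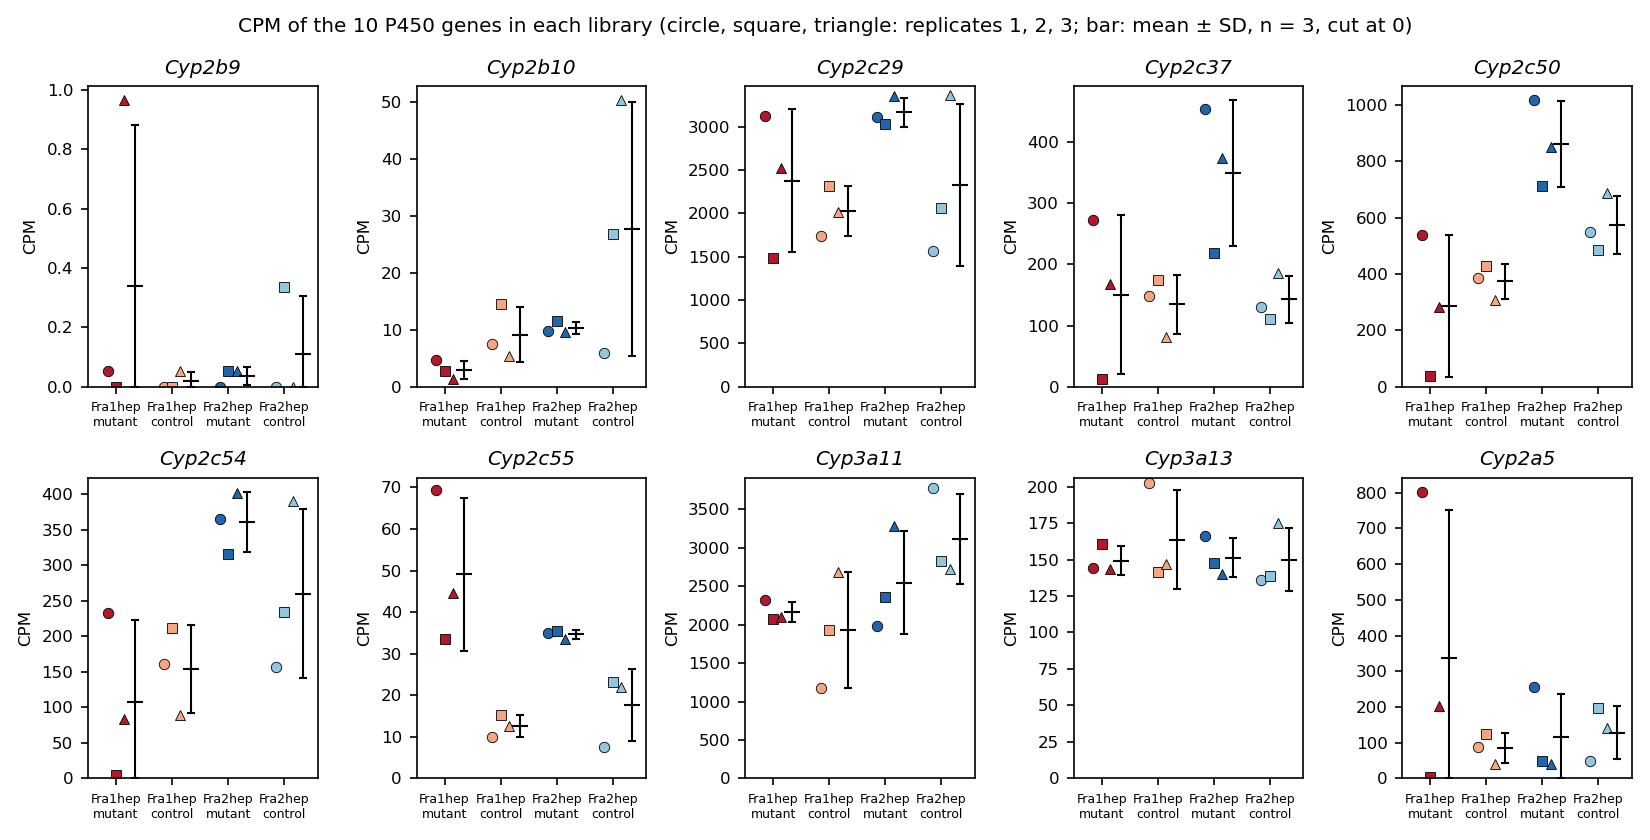
CPM of the 10 genes in each of the 12 libraries, with mutants left of their controls and bars for the mean and SD of 3 libraries. The mutants of both strains lie above all controls for Cyp2c55 (33.4 to 69.3 CPM against 7.57 to 23.1 CPM), and Fra1hep mutant 2 (square) lies at the bottom for Cyp2c37, Cyp2c50, Cyp2c54 and Cyp2a5.

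Cyp2c55, which hydroxylates arachidonic acid and is induced in mouse liver by activators of CAR and PXR, had 69.3, 33.5 and 44.5 CPM in Fra1hep mutants, against 9.99, 15.1 and 12.6 CPM in Fra1hep controls. Behind these values stood 636 to 1267 counts per mutant and 153 to 308 per control. It had 35.0, 35.4 and 33.4 CPM in Fra2hep mutants, against 7.57, 23.1 and 21.97 CPM in Fra2hep controls. In each strain every mutant lay above every control, and the Fra2hep mutants lay within 2 CPM of each other. In Fra1hep the rise was 3.89-fold, a log2 change of 1.96 ± 0.38 (SE; 95% interval 1.13 to 2.79), with a Benjamini-Hochberg adjusted p of 0.0155 by edgeR. In Fra2hep the log2 difference was 0.98 ± 0.37 (interval 0.17 to 1.79) and did not pass, with an adjusted p of 0.319 by edgeR. Without Fra2hep control 1, the lowest of them, it was 0.62, and without Fra2hep control 2 it was 1.23. The effect in Fra2hep minus that in Fra1hep was -0.98 ± 0.52 (interval -2.12 to 0.16) with an adjusted p of 0.822 by edgeR, so the 2 effects were not shown to differ.

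Over the 6 mutants against the 6 controls, a contrast built from the same libraries with strain kept in the model, Cyp2c55 rose 2.77-fold. The log2 change was 1.47 ± 0.26 (interval 0.89 to 2.05) with an adjusted p of 0.00685 by edgeR, and 6 of 6 mutants lay above 6 of 6 controls. In this contrast 1 of 9 members was called higher, where 4.33% of all genes were, and 1 of 9 lay wholly above the controls, where 2.47% of all genes did, and 0 wholly below, where 1.13% did. The call in Fra1hep alone was lost without Fra1hep control 1 (log2 change 1.81, adjusted p = 0.0852 by edgeR) and without Fra1hep control 3 (1.95, adjusted p = 0.0653), with no filter on low counts (adjusted p = 0.0622) and with replicate number as a block (1.91, adjusted p = 0.0685); over the 6 fits that left out a library the adjusted p ranged from 0.0126 to 0.0852. The call in the mean effect was kept in 12 of 12 such fits, with log2 changes between 1.29 and 1.59. Cyp2c55 is also expressed in intestinal epithelium, and the part of such tissue was not tested. Its 5 markers summed to 50.8 to 72.4 CPM in Fra1hep mutants against 92.2 to 143 CPM in Fra1hep controls. In Fra2hep they summed to 73.8 to 132 CPM in mutants against 55.6 to 181 CPM in controls. Most of these counts came from Fabp2 and Lgals4, with 16134 and 4944 over the 12 libraries. Cdx2 had 1 count and Sis was at 0 in all 12 libraries. Within that list Vil1 was at 22.9, 1.16 and 8.08 CPM in Fra1hep mutants against 0.261, 2.06 and 0.161 CPM in Fra1hep controls, and its part in the result was not tested. Bile duct markers summed to 321, 28.7 and 158 CPM in Fra1hep mutants against 74.9, 104 and 90.4 CPM in Fra1hep controls, overlapping between the groups. The 5 stellate cell markers summed to 336, 319 and 285 CPM in Fra1hep mutants against 177, 213 and 194 CPM in Fra1hep controls, with no overlap, and to 192, 267 and 216 CPM in Fra2hep mutants against 284, 261 and 256 CPM in Fra2hep controls. Their part in the result was not tested.

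The protein-coding genes with the profile most like that of Cyp2c55 over the 12 libraries were Asrgl1, Adssl1 and Necab1. Their root mean square differences from it were 0.359, 0.360 and 0.388 in centred log2 CPM, beside a standard deviation of 0.943 for Cyp2c55 itself. None of the other 8 members tested was among them.

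**Figure D3:**
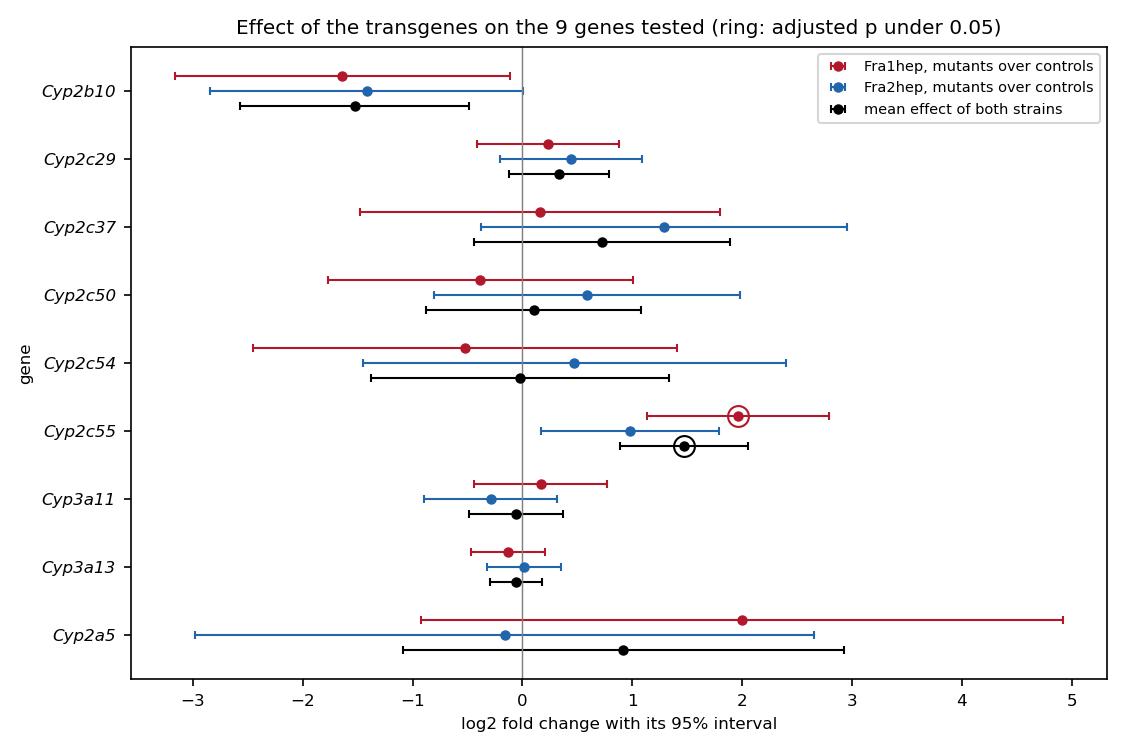
Log2 fold change of the 9 members tested, with 95% intervals, for Fra1hep mutants over controls, Fra2hep mutants over controls and the mean effect. The rings, at 1.96 and 1.47, mark Cyp2c55 as the member called, and the intervals of Cyp2a5 are the widest shown, from -0.92 to 4.92 in Fra1hep.

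Cyp2b10, the classical CAR target induced by phenobarbital, was lower in the mutants on average but did not pass the test. It had 4.65, 2.79 and 1.37 CPM in Fra1hep mutants, against 7.44, 14.5 and 5.33 CPM in Fra1hep controls. In Fra2hep it had 9.81, 11.6 and 9.55 CPM in mutants, against 5.85, 26.7 and 50.3 CPM in controls. All Fra1hep mutants lay below their controls, while Fra2hep control 1 lay below all 3 Fra2hep mutants. The log2 difference was -1.64 ± 0.69 in Fra1hep (interval -3.16 to -0.11), with an adjusted p of 0.267 by edgeR. It was -1.42 ± 0.65 in Fra2hep (interval -2.85 to 0.01), with an adjusted p of 0.438 by edgeR, and -0.66 without Fra2hep control 3.

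Averaged over both strains, the log2 difference of Cyp2b10 was -1.53 ± 0.47, with an unadjusted p of 0.00823 and an adjusted p of 0.0930 by edgeR. DESeq2 called it lower (-1.54, adjusted p = 0.00625), as did edgeR without Fra2hep control 1 (-1.77, adjusted p = 0.0117). Over the 12 fits that each left out a library the adjusted p ranged from 0.0117 to 0.199. In that contrast edgeR called 0 of 9 members lower, where 1.9% of all genes were called lower, with 2 of 9 members, and 19.4% of all genes, at an unadjusted p under 0.05 in either direction; limma-voom called 0 lower. Its relative Cyp2b9, a female-enriched P450 of mouse liver, was at the edge of detection. It had 1, 0 and 19 counts in Fra1hep mutants, against 0, 0 and 1 in Fra1hep controls, and 0, 1 and 1 counts in Fra2hep mutants, against 0, 6 and 0 in Fra2hep controls. Fra1hep mutant 3 and Fra2hep control 2 exceeded 3 counts, which correspond to 0.147 to 0.196 CPM here, and no comparison was made.

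The Cyp2c trio of Cyp2c37, Cyp2c50 and Cyp2c54, hydroxylases and epoxygenases of fatty acids that CAR activators induce in mouse liver, varied together from liver to liver. Cyp2c37 had 272, 12.7 and 167 CPM in Fra1hep mutants, against 148, 175 and 81.8 CPM in Fra1hep controls. Cyp2c50 had 539, 37.4 and 283 CPM in Fra1hep mutants, against 385, 429.5 and 308 CPM in Fra1hep controls. Cyp2c54 had 233, 4.79 and 83.7 CPM in Fra1hep mutants, against 160.4, 212 and 89.2 CPM in Fra1hep controls. In all 3 genes Fra1hep mutant 2 was far below every other library, and Fra1hep mutant 1 was above all 3 controls. On the log2(CPM + 0.5) scale, Fra1hep mutant 2 lay at -3.29 for Cyp2c37, -3.29 for Cyp2c50 and -4.78 for Cyp2c54 relative to the mean of the Fra1hep controls. The root mean square difference between the centred log2 profiles was 0.423 for Cyp2c37 and Cyp2c50, 0.547 for Cyp2c50 and Cyp2c54, and 0.693 for Cyp2c37 and Cyp2c54; the transcripts share windows, as given above, so the 3 profiles are not independent.

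In Fra2hep the mean of each of the 3 genes was higher in the mutants. Cyp2c37 had 454, 219 and 374 CPM in Fra2hep mutants, against 131, 111 and 186 CPM in Fra2hep controls. Cyp2c50 had 1018, 713 and 852 CPM in Fra2hep mutants, against 550.2, 485 and 688 CPM in Fra2hep controls. Cyp2c54 had 364, 316 and 401 CPM in Fra2hep mutants, against 156, 233 and 390.0 CPM in Fra2hep controls. For Cyp2c37 and Cyp2c50 every Fra2hep mutant lay above every Fra2hep control, whereas for Cyp2c54 the groups overlapped.

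None of the trio passed the test. In Fra2hep the log2 differences were 1.29 ± 0.75 for Cyp2c37, 0.58 ± 0.63 for Cyp2c50 and 0.47 ± 0.87 for Cyp2c54, with adjusted p between 0.582 and 0.902 by edgeR. In Fra1hep they were 0.16 ± 0.74, -0.38 ± 0.63 and -0.52 ± 0.87 in the same order, with adjusted p between 0.825 and 0.943 by edgeR. Without Fra1hep mutant 2 the Fra1hep differences became 0.70 ± 0.38, 0.14 ± 0.27 and 0.04 ± 0.48, with adjusted p between 0.453 and 0.981 by edgeR. The mean effect of Cyp2c37 was 0.73 ± 0.53 (adjusted p = 0.498 by edgeR) with all libraries. Without Fra1hep mutant 2 it was 1.00 ± 0.26 and passed (adjusted p = 0.0492), which made 2 called members, Cyp2c37 and Cyp2c55. Over the 12 fits with a library left out its adjusted p ranged from 0.0492 to 0.784.

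**Figure D4:**
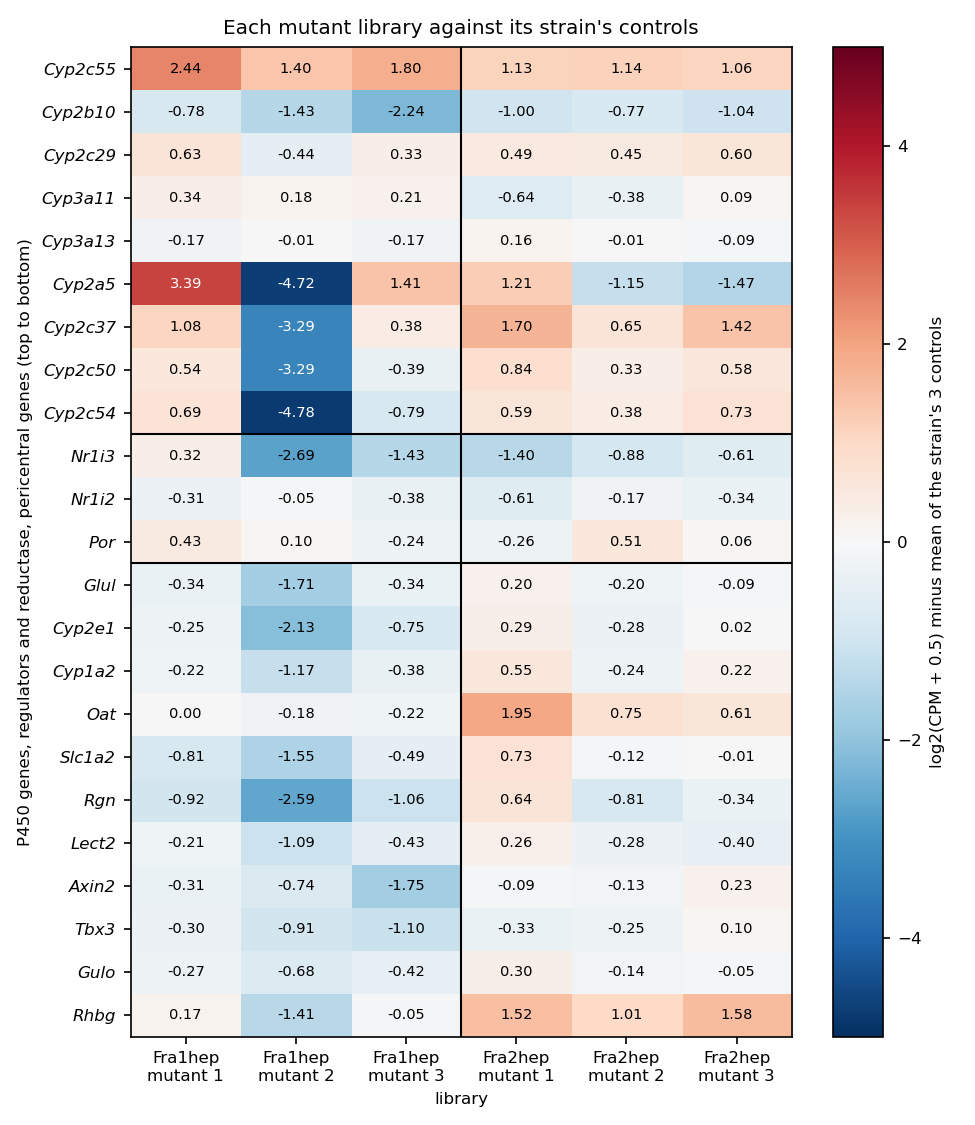
Each mutant library against the mean of its strain's 3 controls on the log2(CPM + 0.5) scale, for members, regulators with the reductase, and 11 pericentral genes. Fra1hep mutant 2 is low for Cyp2a5 (-4.72), Cyp2c37, Cyp2c50, Cyp2c54, Nr1i3 (-2.69) and most pericentral genes, and Cyp2c55 is positive in all 6 mutants (1.06 to 2.44).

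Most of the 11 pericentral genes were lowest among the Fra1hep mutants in mutant 2, where the trio was low too. Axin2, Tbx3 and Oat were instead lowest in Fra1hep mutant 3. Relative to the mean of the Fra1hep controls, on the scale used for the trio, Axin2 lay at -0.74 in mutant 2 and -1.75 in mutant 3. Tbx3 lay at -0.91 and -1.10 and Oat at -0.18 and -0.22, in the same order. The summed level of the 11 genes was 8452, 3075 and 6561 CPM in Fra1hep mutants, against 10242 to 10635 CPM in Fra1hep controls. Cyp2e1 had the most counts of them, 1292115 over the 12 libraries. Cyp2e1, a pericentral P450 of ethanol metabolism, had 5555, 1499 and 3921 CPM in Fra1hep mutants, against 6917, 6537 and 6311 CPM in Fra1hep controls. Glul, glutamine synthetase of the hepatocytes next to the central vein, had 555, 215 and 553 CPM in Fra1hep mutants, against 666, 685 and 759 CPM in Fra1hep controls. In all 11 genes the fitted log2 difference in Fra1hep was below 0 (median -0.67, beside 0.01 for all genes), yet edgeR called 0. At an unadjusted p under 0.05 by edgeR there were 8 of 11, where 16.3% of all genes passed. DESeq2 called 2 lower, Slc1a2 and Rgn, and limma-voom 0. Without Fra1hep mutant 2 all 11 stayed below 0, with a median of -0.34, 0 called by edgeR and 4 at an unadjusted p under 0.05. In Fra2hep 6 of 11 were above 0, with a median of 0.02. Their summed level there was 15417, 9212 and 11043 CPM in mutants, against 10598, 10376 and 11873 CPM in controls. In that strain edgeR called 0, with 2 at an unadjusted p under 0.05, where 11.5% of all genes passed. DESeq2 called Oat higher and limma-voom called 0. The sum of 8 periportal genes was 11472 CPM in Fra1hep mutant 2, against 8976 to 10309 CPM in Fra1hep controls. The part of zonation in the trio's levels was not tested.

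Cyp2c29, the most abundant member per kb of exon, had 3119, 1488 and 2526 CPM in Fra1hep mutants, against 1743, 2321 and 2021 CPM in Fra1hep controls. In Fra2hep it had 3111, 3028 and 3353 CPM in mutants, against 1566, 2057 and 3371 CPM in controls. The groups overlapped in both strains, since Fra1hep mutant 2 was below its controls and Fra2hep control 3 was as high as the mutants. The log2 differences were 0.23 ± 0.29 in Fra1hep (interval -0.42 to 0.88) and 0.44 ± 0.30 in Fra2hep (interval -0.21 to 1.09), with adjusted p of 0.762 and 0.646 by edgeR. Without Fra1hep mutant 2 the Fra1hep difference was 0.48 ± 0.27 (adjusted p = 0.477).

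For the Cyp3a members the groups overlapped throughout. Cyp3a11, the mouse counterpart of human CYP3A4 in drug oxidation, had 2315, 2073 and 2102 CPM in Fra1hep mutants, against 1170.4, 1932 and 2682 CPM in Fra1hep controls. In Fra2hep it had 1981, 2366 and 3288 CPM in mutants, against 3785, 2831 and 2724 CPM in controls. Fra1hep mutant 2 lay between the other libraries of its strain. The log2 differences were 0.17 ± 0.28 in Fra1hep (interval -0.44 to 0.77, adjusted p = 0.827 by edgeR) and -0.29 ± 0.28 in Fra2hep (interval -0.90 to 0.31, adjusted p = 0.773).

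Cyp3a13, a Cyp3a enzyme also found in the intestine, was the steadiest member. It had 144, 160.5 and 143 CPM in Fra1hep mutants, against 202, 142 and 147 CPM in Fra1hep controls. In Fra2hep it had 166, 147 and 140.0 CPM in mutants, against 136, 139 and 175 CPM in controls. The log2 differences were -0.13 ± 0.15 in Fra1hep (interval -0.47 to 0.21) and 0.01 ± 0.15 in Fra2hep (interval -0.33 to 0.35), with adjusted p of 0.728 and 0.990 by edgeR. These are the narrowest intervals among the 9 members, so a change beyond 0.47 on the log2 scale lies outside both.

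Cyp2a5, the mouse coumarin hydroxylase and counterpart of human CYP2A6, had the widest spread of the 9 members tested. It had 802, 2.42 and 203 CPM in Fra1hep mutants, against 86.6, 125 and 41.0 CPM in Fra1hep controls. In Fra2hep it had 255, 49.2 and 39.4 CPM in mutants, against 48.4, 196 and 139.5 CPM in controls. Fra1hep mutants 1 and 3 were above all 6 controls, while Fra1hep mutant 2 was the lowest of the 12 libraries. The log2 difference in Fra1hep was 2.00 ± 1.32 (interval -0.92 to 4.92, adjusted p = 0.4996 by edgeR), and 2.58 ± 0.89 (adjusted p = 0.193) without mutant 2. Without mutant 1 it was 0.29. In Fra2hep it was -0.16 ± 1.28 (interval -2.98 to 2.66, adjusted p = 0.983 by edgeR). Its close relative Cyp2a4, which shares 31.0% of its windows, had 192 counts over the 12 libraries and failed the filter.

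Between the strains, no member differed by the tests made. Of 9 members, edgeR called 0 for the difference of the transgene effects, where 0.0355% of all genes were called in either direction, and 0 at an unadjusted p under 0.05, where 6.32% of all genes passed. For Fra2hep controls against Fra1hep controls it called 0 of 9, where 0% of all genes were called, with 2 of 9, and 5.35% of all genes, at an unadjusted p under 0.05. For Fra2hep mutants against Fra1hep mutants it called 0 of 9, where 0.0497% of all genes were called, with 2 of 9, and 12.3% of all genes, at an unadjusted p under 0.05. DESeq2 and limma-voom called 0 members in each of these 3 comparisons.

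The levels still separated in some of them. Cyp3a11 was above every Fra1hep control in all 3 Fra2hep controls, with a log2 difference of 0.69 ± 0.28 (adjusted p = 0.866 by edgeR), and Cyp2c50 likewise at 0.62 ± 0.63 (adjusted p = 0.894); 2 of 9 members lay wholly above in Fra2hep, where 5.28% of all genes did, and 0 below, where 4.82% did. Between the mutants, Cyp2b10, Cyp2c50 and Cyp2c54 were wholly above in Fra2hep, which is 3 of 9 members where 8.72% of all genes were, and 0 were wholly below, where 10.6% were. The log2 differences were 1.82 ± 0.69 for Cyp2b10, 1.59 ± 0.64 for Cyp2c50 and 1.75 ± 0.90 for Cyp2c54, with adjusted p between 0.333 and 0.466 by edgeR. Without Fra1hep mutant 2 they were 1.78 ± 0.82, 1.06 ± 0.28 and 1.18 ± 0.50, with adjusted p between 0.225 and 0.506.

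The receptors that drive these genes were not called with all 12 libraries. Nr1i3, which encodes CAR, had 259, 31.7 and 76.8 CPM in Fra1hep mutants, against 201, 396 and 112 CPM in Fra1hep controls. It had 151, 217 and 261 CPM in Fra2hep mutants, against 386, 478 and 345 CPM in Fra2hep controls, and there all mutants lay below all controls. The log2 differences were -0.95 ± 0.65 and -0.94 ± 0.65 in Fra1hep and Fra2hep, with adjusted p of 0.514 and 0.656 by edgeR. In Fra1hep that of Nr1i3 was -0.49 ± 0.55 without mutant 2 (adjusted p = 0.754), and between -2.13 and -0.35 over the 6 fits with a library left out. Its mean effect was -0.95 ± 0.46 (adjusted p = 0.290) and was called lower in 1 of 12 such fits, without Fra1hep mutant 1 (-1.54, adjusted p = 0.0334). Nr1i2, which encodes PXR, differed by -0.25 ± 0.15 and -0.37 ± 0.15 (adjusted p = 0.460 and 0.379 by edgeR). Por, the reductase all members depend on, differed by 0.04 ± 0.30 and 0.12 ± 0.30 (adjusted p = 0.967 and 0.931 by edgeR). Of 13 genes for CAR, PXR and their cofactors, edgeR called 0 in either strain, with 2 at an unadjusted p under 0.05 in each, and DESeq2 and limma-voom called 0; the medians were -0.12 in Fra1hep and -0.03 in Fra2hep. Of 8 genes for redox partners and haem supply, all 3 tools called 0 in either strain, with 1 at an unadjusted p under 0.05 by edgeR in Fra1hep and 0 in Fra2hep. At that unadjusted threshold 16.3% of all genes passed in Fra1hep and 11.5% in Fra2hep.

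Among the other genes of the Cyp2a, Cyp2b and Cyp2c subfamilies, 10 of 17 listed were tested, and edgeR called 0 in either strain alone. At an unadjusted p under 0.05 there were 4 in Fra1hep and 2 in Fra2hep, where 16.3% and 11.5% of all genes passed. In the mean effect edgeR called 1 higher and 1 lower, where 4.33% and 1.9% of all genes were called. Both encode epoxygenases of arachidonic acid. Cyp2c23 had 699, 514 and 491 CPM in Fra1hep mutants, against 190.0, 337 and 130 CPM in Fra1hep controls, and 594, 411 and 592 CPM in Fra2hep mutants, against 461, 190.1 and 244 CPM in Fra2hep controls. It rose by 1.11 ± 0.27 on the log2 scale (adjusted p = 0.0335 by edgeR), a call that was kept in 4 of 12 fits with a library left out (adjusted p from 0.00906 to 0.0931) and lost with no filter on low counts (adjusted p = 0.111). Cyp2c38 had 7.22, 1.95 and 1.17 CPM in Fra1hep mutants, against 26.6, 32.8 and 9.20 CPM in Fra1hep controls, and 9.35, 7.96 and 7.53 CPM in Fra2hep mutants, against 21.8, 89.0 and 50.6 CPM in Fra2hep controls. Its log2 change was -2.72 ± 0.49 (adjusted p = 0.00778 by edgeR), a fall called in 12 of 12 fits with a library left out. Cyp2c38 thus fell and Cyp2c55, in the same cluster, rose. DESeq2 called Cyp2c38 lower and Cyp2c23 higher in Fra1hep, and Cyp2c38 lower in Fra2hep, whereas limma-voom called neither in a single strain and both in the mean effect.

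Of the remaining Cyp2 genes 17 of 22 were tested and of the remaining Cyp3a genes 2 of 7, and edgeR called 0 in either strain or in the mean effect. At an unadjusted p under 0.05 there were 4 Cyp2 genes and 1 Cyp3a gene in Fra1hep and 5 and 0 in Fra2hep. In the mean effect there were 5 and 0. Of all genes, 16.3%, 11.5% and 19.4% passed in these comparisons, in the same order. DESeq2 called Cyp2d26 lower in Fra1hep, and limma-voom called 0.

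Other targets of CAR and PXR, for conjugation and transport, did not move as a block either. Of 25 tested, edgeR called 5 higher and 0 lower in Fra1hep and 1 higher and 0 lower in Fra2hep, beside the 2.9% and 0.845% of all genes called higher; the medians were -0.12 and -0.07. The glutathione transferase gene Gsta2 had 40.9, 45.7 and 43.6 CPM in Fra1hep mutants, against 6.46, 6.68 and 5.06 CPM in Fra1hep controls. It had 21.2, 27.8 and 25.4 CPM in Fra2hep mutants, against 9.77, 12.7 and 7.94 CPM in Fra2hep controls. Mutants lay above controls in both strains, with log2 changes of 2.84 ± 0.19 in Fra1hep and 1.29 ± 0.18 in Fra2hep (adjusted p = 1.61e-05 and 0.00501 by edgeR). The others called in Fra1hep were Gsta1 (3.72 ± 0.68, adjusted p = 0.0112 by edgeR), Gstm3 (2.03 ± 0.45, adjusted p = 0.0318) and the efflux transporters Abcc4 (2.36 ± 0.39, adjusted p = 0.00590) and Abcb1a (2.04 ± 0.43, adjusted p = 0.0224). Windows that Gsta1, Gsta2 and Gstm3 share with each other were not counted, so their calls may not be independent. The call of Gsta1 held in 4 of 6 fits with a library left out (adjusted p up to 0.0531), that of Abcb1a in 1 of 6 (up to 0.112) and that of Gstm3 in 0 of 6 (0.0590 to 0.122), while Gsta2 and Abcc4 held in 6 of 6. In the mean effect 4.33% of all genes were called higher and 1.9% lower. There the 5 called in Fra1hep were higher, and Gstt3 (-1.11 ± 0.28, adjusted p = 0.0403 by edgeR) and the glucuronosyltransferase gene Ugt1a9 (-1.92 ± 0.46, adjusted p = 0.0344) were lower. Of 12 fits with a library left out, Gsta2 and Abcc4 kept that call in 12, Gsta1 in 6, Ugt1a9 in 4, Gstm3 and Abcb1a in 3 and Gstt3 in 2. By limma-voom Abcb1a, Gstt3 and Ugt1a9 were not called in the mean effect (adjusted p between 0.0594 and 0.0745).

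Genes of the dioxin receptor AHR and genes with a sex bias in liver were read as comparisons. Of 7 AHR genes tested, all 3 tools called 0 in either strain, with 1 at an unadjusted p under 0.05 by edgeR in Fra1hep and 0 in Fra2hep. Of all genes 16.3% and 11.5% passed that threshold. Of 14 female-biased genes 6 were tested. Of these, 0 had a log2 difference above 0 in Fra1hep (median -1.12) and 1 in Fra2hep (median -0.14), beside medians of 0.01 and -0.01 for all genes. Abcd2, a peroxisomal fatty acid transporter, was the gene called. It had 1.53, 2.95 and 1.47 CPM in Fra1hep mutants, against 27.4, 44.2 and 18.6 CPM in Fra1hep controls, and 3.21, 0.709 and 1.14 CPM in Fra2hep mutants, against 20.4, 42.2 and 36.2 CPM in Fra2hep controls. Its log2 changes were -3.92 ± 0.54 and -4.30 ± 0.55 (adjusted p = 0.00206 and 0.00420 by edgeR). Of 9 male-biased genes DESeq2 called Hsd3b5 and Cyp4a12b lower in Fra1hep and limma-voom called 0. The median log2 difference was -0.59 in Fra1hep and 0.35 in Fra2hep. In Fra1hep edgeR called 0, with 4 at an unadjusted p under 0.05, where 16.3% of all genes passed. In Fra2hep it called 1, Cyp4a12b, higher, where 0.845% of all genes were called higher. In the mean effect C6 was higher (0.62 ± 0.14, adjusted p = 0.0232 by edgeR), where 4.33% of all genes were called higher. That call was kept in 5 of 12 fits with a library left out (adjusted p up to 0.0665 by edgeR). DESeq2 called Cyp4a12b and C6 higher in Fra2hep, and C6 higher and Hsd3b5 lower in the mean effect. By limma-voom Cyp4a12b was called higher in Fra2hep and C6 in the mean effect.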

How the data were processed

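Liver RNA of 12 mice was made into stranded poly(A) libraries with 8 PCR cycles, per the labels' protocols. Values in the deposited table are whole counts of reads per gene with no normalization, as its numbers and header show. Tools named in the submitters' processing notes are DESeq2 (1.22.2), bedtools (2.27.1), RSEM and STAR (2.6.1a), with the build GRCm38 (mm10). Which tool made the counts, and how reads with several matches were treated, the sources used here do not say. Groups and replicate numbers came from the sample titles.

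Genes passing edgeR's filterByExpr (14076) were scaled by TMM and fitted over the 12 libraries with 4 group means, so that groups of 3 share a spread, by robust quasi-likelihood (edgeR 4.0.16, R 4.3.3). Tests were two-sided, with Benjamini-Hochberg adjustment over all genes tested and calls at an adjusted p under 0.05. Standard errors came from the test statistic and the 95% intervals from its degrees of freedom. CPM divide by TMM-scaled totals of the kept genes. Per-kb levels divide CPM by the merged length of all annotated exons in GENCODE M21, where 10 of 10 members matched by identifier. No pair of libraries of a group agreed within sampling noise (chi-square per degree of freedom 30.1 to 129). PCR copies cannot be told from molecules. Alternatives comprised RLE factors, unscaled totals, DESeq2 (1.42.0), limma-voom (3.58.1), 2 other filters (none; at least 1 CPM in 3 libraries), non-robust estimation, a fit of only the libraries compared, replicate number as a block, and leaving out each library. The code was tested on simulated data.

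The members, gene lists, tests and alternatives were chosen with earlier results of these data known. Named besides members were Fosl1, Fosl2, Nr1i3, Nr1i2 and Por, up to 4 called genes per list with the smallest adjusted p, further list genes where a count was 5 or fewer, and the 3 protein-coding genes nearest in profile to a member called in a strain. Cyp2e1, Glul and Vil1 were chosen after their values were seen.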

Additional observations from a re-analysis of the deposited data

Results flagged for a closer look

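Cyp4a12b, a male-biased fatty acid hydroxylase gene outside the 10 members, differed in its response between the strains: the effect in Fra2hep minus that in Fra1hep was 2.35 ± 0.31 on the log2 scale (adjusted p = 0.0342 by edgeR). That call was kept in 1 of 12 fits with a library left out, the one without Fra2hep control 3; over the 12 the value ranged from 2.17 to 2.52 and the adjusted p from 0.0294 to 0.125. It was also lost with the replicate block (2.34, adjusted p = 0.0549). Cyp4a12b had 248, 208 and 319 CPM in Fra2hep mutants against 90.1, 70.9 and 106 CPM in Fra2hep controls, and 74.3, 53.7 and 70.2 CPM in Fra1hep mutants against 88.8, 129 and 131 CPM in Fra1hep controls. It rose in Fra2hep by 1.54 ± 0.22 (adjusted p = 0.00648 by edgeR). In Fra1hep the difference was -0.81 ± 0.21 and did not pass (adjusted p = 0.0643 by edgeR). Cyp4a12a, from the same male-biased list, had 86321 counts over the 12 libraries, against 29232 for Cyp4a12b. For Cyp4a12a edgeR made no call in either strain or for the difference. Windows shared between Cyp4a12a and Cyp4a12b were not counted. On the treatment label of 9 months, age and transgene cannot be told apart in the Fra2hep part of this difference.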

How the results depend on the processing

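Over the alternatives other than leaving out a library, 811 of the values for single genes kept their direction and their side of the threshold, 12 changed sign, 15 lost a call and 10 gained one. With a library left out, 667 were unchanged in this sense, 47 changed sign, 83 lost a call and 7 gained one. For members the sign changes were in values that had not passed, and the cause of each change was not tested.

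The call of Cyp2c55 in Fra1hep was lost with no filter on low counts and with the replicate block, each giving 0 members higher; with the block the log2 change was 1.91 (adjusted p = 0.0685 by edgeR). Deviations from the group means of same-numbered mutants and controls correlated at -0.12 to 0.056, and those of differently numbered ones at -0.14 to 0.11. With 3 libraries a group, these values cannot settle whether replicate numbers pair the samples. The mean effect had 1 member lower by DESeq2, Cyp2b10. Over fits with a library left out, members higher ranged from 0 to 1 in Fra1hep and from 1 to 2 in the mean effect, and members lower from 0 to 1 in the mean effect.

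By limma-voom the log2 differences became -0.62 for Cyp2c37 and -0.048 for Cyp2a5 in Fra1hep, -0.23 for Cyp2c50 and -0.26 for Cyp2a5 in the mean effect, and 0.11 for Cyp2a5 between mutants. With the replicate block they became -0.32 for Cyp2c37 in Fra1hep and -0.16 for Cyp2c50 in the mean effect. With unscaled totals the median of all genes was 0.148 in Fra1hep, 0.0955 in the mean effect and -0.115 between mutants. With TMM it was 0.0075, 0.00065 and -0.021 in the same order. On the unscaled totals Cyp3a13 became 0.018 in Fra1hep and -0.075 between mutants. Cyp2c54, Cyp3a11 and Cyp3a13 became 0.088, 0.025 and 0.042 in the mean effect. Each of these values was smaller in size than the unscaled median of its comparison.

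With a library left out, the log2 differences in Fra1hep ranged from -0.022 to 0.48 for Cyp2c29, from -0.59 to 0.70 for Cyp2c37, from -1.23 to 0.14 for Cyp2c50, from -1.80 to 0.044 for Cyp2c54, from -0.11 to 0.46 for Cyp3a11, from -0.23 to 0.034 for Cyp3a13 and from -0.21 to 0.41 for Por. In Fra2hep they ranged from -0.062 to 0.14 for Cyp3a13, from -1.53 to 0.28 for Cyp2a5, from -0.11 to 0.29 for Por, from -0.29 to 0.88 for Gsta1, from -0.16 to 0.80 for Gstm3 and from -0.38 to 0.53 for Abcb1a. The difference of effects ranged from -0.30 to 0.98 for Cyp2b10, from -0.037 to 0.58 for Cyp2c29 and from -0.031 to 0.27 for Cyp3a13. The mean effect ranged from -0.32 to 0.36 for Cyp2c50, from -0.67 to 0.26 for Cyp2c54, from -0.20 to 0.082 for Cyp3a11, from -0.11 to 0.019 for Cyp3a13 and from -0.046 to 0.26 for Por. Between controls the range was -0.16 to 0.42 for Cyp2c29, -0.17 to 0.31 for Cyp2c37 and -0.25 to 0.063 for Cyp3a13, and between mutants -2.92 to 0.16 for Cyp2a5 and -0.055 to 0.074 for Cyp3a13.

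Counts over all genes moved by more than 1.5 times in these fits. DESeq2 called 678 higher and 343 lower in Fra1hep, 315 and 133 in Fra2hep, 22 and 47 for the difference, 17 and 1 between controls, 187 and 178 between mutants, and 511 lower in the mean effect. Unscaled totals gave 674 higher in Fra1hep, 939 higher in the mean effect and 7 lower between mutants. The replicate block gave 83 lower in Fra1hep, 78 and 20 in Fra2hep and 173 lower in the mean effect. With only the libraries compared Fra2hep had 71 and 19. With no filter 8 were lower for the difference, 3 higher between controls, and 15 and 22 between mutants. By limma-voom 7 were higher between mutants, and non-robust estimation gave 2 higher for the difference. With a library left out the counts ran over 215 to 334 higher and 52 to 110 lower in Fra1hep. In Fra2hep they were 45 to 84 and 7 to 29, and in the mean effect 437 to 602 and 160 to 301. With all 12 libraries the counts were 408 and 132, 119 and 31, and 610 and 268 in the same order. Some of the counts with a library left out therefore moved by less than 1.5 times.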
